A study of Homo sapiens with 6 samples.

Results

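The genes described here are 10 protein-coding genes whose RNA carried peaks of both G4PID and SF3B4: TCF25, PCBP2, MROH6, YBX3, SQSTM1, TCIRG1, PIEZO1, RECQL4, SNRNP70 and MAD1L1. They were chosen by the positions of the deposited peaks: each gene holds the midpoint of at least 1 peak on its own strand in each list. Their presence in both lists is therefore a description. They are 10 of 21 protein-coding genes that met this condition when every peak was given to 1 gene, out of 1846 protein-coding genes with a peak in either list. The condition does not separate these 10 from the 11 others, and the members were chosen with earlier results of these data known. Of 19940 annotated protein-coding genes, 99 had a G4PID peak (0.496%), 1768 had an SF3B4 peak (8.87%) and 21 had both (0.105%). The 21 genes make up 21.2% of the protein-coding genes with a G4PID peak and 1.19% of those with an SF3B4 peak.

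The peaks came from eCLIP in HEK293T, an established line of human embryonic kidney origin. In eCLIP a protein is precipitated together with the RNA that it contacts, and the recovered fragments are set against an input library. The series held 2 G4PID libraries precipitated with an anti-HA antibody, 2 SF3B4 libraries precipitated with an antibody against SF3B4, and 2 input libraries with no antibody. Per the labels' protocols, cells received a plasmid for G4PID or for miniTurboID, were kept for 24 h and were given 500 µM biotin for 30 min. That text is the same for all 6 samples, so it does not settle which plasmid, if any, the SF3B4 and input cells received. G4PID was thus expressed from a transfected plasmid. A single deposited peak list was analysed for each antibody. It gives no replicate spread and no depth, and no test was run.

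G4PID is an engineered enzyme that recognises G-quadruplexes, structures built from stacked guanines, and biotinylates proteins nearby. SF3B4 belongs to SF3b, the part of the U2 snRNP that settles on the branch point region of an intron, a short way upstream of the 3' splice site, before the intron is removed. SF3B4 contacts RNA that has not yet been spliced, while a quadruplex can in principle form in any part of a transcript. A gene found in both lists may therefore be contacted at the same place or at places far apart.

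In these 10 genes the peaks of G4PID and SF3B4 lay apart. None of the 15 G4PID peaks shared a base with any of the 28 SF3B4 peaks. The 11 other genes in both lists had no overlapping pair either. Peaks in the 10 genes had median widths of 61 nt (G4PID) and 56 nt (SF3B4). The genes had a median length of 26642.5 nt. The absence of overlap was not tested, and the share over the whole G4PID list is not given here. The smallest distance between midpoints of the lists was 136 nt in SNRNP70 and 207 nt in TCF25, the only members with a pair closer than 1000 nt. It was 1038 nt in RECQL4 and 4324 nt in MROH6. It lay between 6396 and 7155 nt in PIEZO1, TCIRG1, PCBP2 and YBX3, and was 15070 nt in SQSTM1 and 327700 nt in MAD1L1. In 6 genes (PCBP2, MROH6, YBX3, SQSTM1, TCIRG1 and PIEZO1) every G4PID peak lay upstream of every SF3B4 peak along the RNA. In MAD1L1 the order was the opposite, and in TCF25, RECQL4 and SNRNP70 the peaks were interleaved. Counted over pairs of peaks, the G4PID midpoint was upstream in 24 of 39 pairs, and in 14 of 33 in the 11 other genes. The pairs are not independent, since a peak can enter several of them and TCF25 alone gave 12 of the 39.

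**Figure D1:**
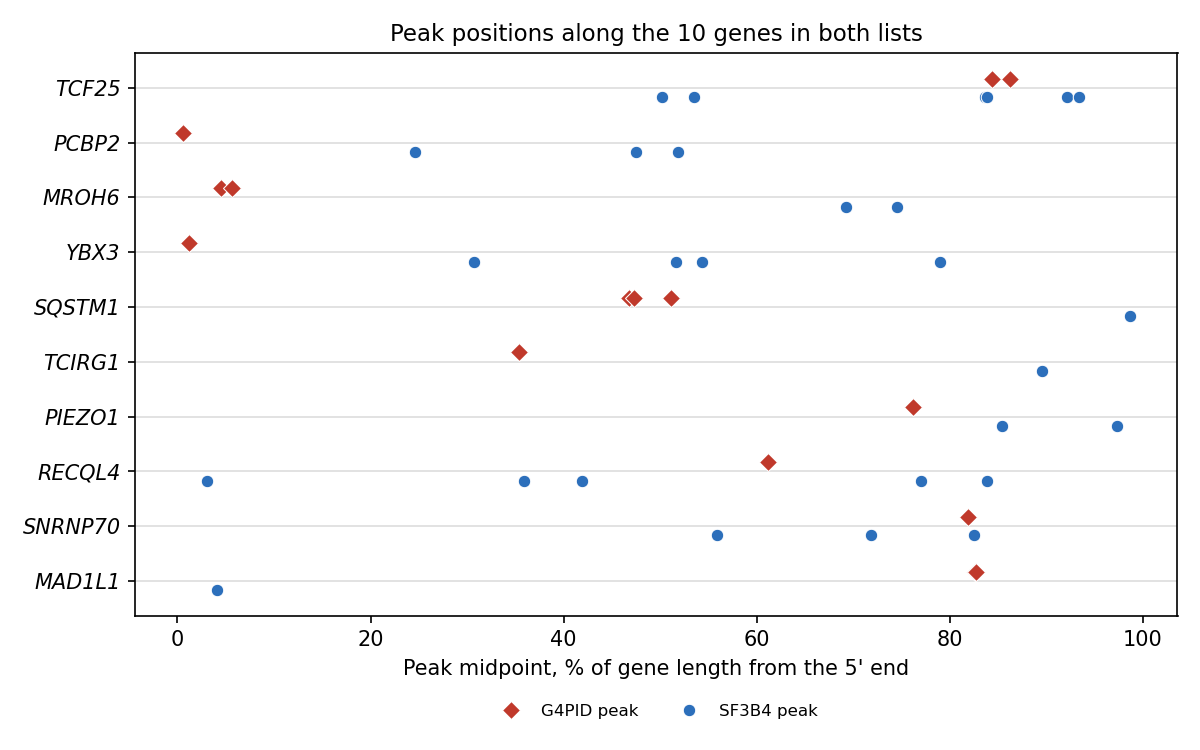
Midpoint of every peak in the 10 genes, as a percentage of gene length from the 5' end, with G4PID peaks as red diamonds above SF3B4 peaks as blue circles. In 6 genes all G4PID peaks stand left of all SF3B4 peaks, and only in TCF25 and SNRNP70 do peaks of the lists nearly coincide on this scale.

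SNRNP70, on chromosome 19 from 49085419 to 49108605 on the plus strand, encodes the U1-70K protein of the U1 small nuclear ribonucleoprotein, the particle that recognises 5' splice sites. It held the closest pair. Its G4PID peak (49104387 to 49104446, log2 fold over input 4.74, −log10 p 9.82) and an SF3B4 peak (49104539 to 49104565, log2 fold 3.80, −log10 p 20.3) both lay in intron 7, an intron of 3162 nt (introns are numbered along 1 reference transcript per gene). When all annotated transcripts were used, both midpoints fell in a noncoding exon. The G4PID midpoint was 218 nt and the SF3B4 midpoint 82 nt upstream of the 3' splice site, and 92 nt separated the edges of the peaks. The sequence below is shown because it holds both contacts and runs to the splice site. Capitals mark the deposited peaks, G4PID first and SF3B4 second, and the last 2 bases are the first of the next exon (hg38, plus strand, chr19:49104387-49104635).
SNRNP70: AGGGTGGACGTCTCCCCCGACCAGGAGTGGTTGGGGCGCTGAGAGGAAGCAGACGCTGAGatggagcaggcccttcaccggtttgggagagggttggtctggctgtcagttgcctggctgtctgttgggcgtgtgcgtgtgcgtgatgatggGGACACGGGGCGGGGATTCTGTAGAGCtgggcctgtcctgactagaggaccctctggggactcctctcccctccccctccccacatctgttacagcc
G made up 43.3% of the G4PID peak and 48.1% of the SF3B4 peak, against medians of 27.6% over 189 readable G4PID peaks and 24.7% over 1742 readable SF3B4 peaks. Both SNRNP70 peaks were thus richer in G than the middle peak of their list.

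SNRNP70 had SF3B4 peaks at 2 other places. A peak with a log2 fold of 5.05 lay 37 nt upstream of a 3' splice site at the end of intron 4, which is 7906 nt long. A peak in intron 7 (49102054 to 49102107, log2 fold 4.2) was 690 nt from the nearest 3' splice site of the basic transcript set and so counted as deep in the intron. When all annotated transcripts were used, the same midpoint stood 34 nt upstream of a 3' splice site. The highest SF3B4 value of the gene ranked 293 of 1882 genes in that list, and its G4PID value 93 of 127.

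TCF25, on chromosome 16 from 89873570 to 89913627 on the plus strand, encodes a protein whose yeast relative belongs to the ribosome quality control complex. It had the highest G4PID value of the 10 genes and ranked 12 of 127 genes in that list. That peak (89907368 to 89907428, log2 fold 6.35, −log10 p 15.7) lay 76 nt downstream of a 5' splice site in intron 16. Immediately upstream, on the far side of an exon of 80 nt, a pair of neighbouring SF3B4 peaks (89907078 to 89907146 and 89907156 to 89907227, both at log2 fold 4.22) occupied the end of intron 15. Their midpoints were 131 and 52 nt upstream of the 3' splice site. The edge of the nearer SF3B4 peak and that of the G4PID peak were 140 nt apart. The exon was therefore flanked by SF3B4 on its upstream and by G4PID on its downstream side.

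**Figure D2:**
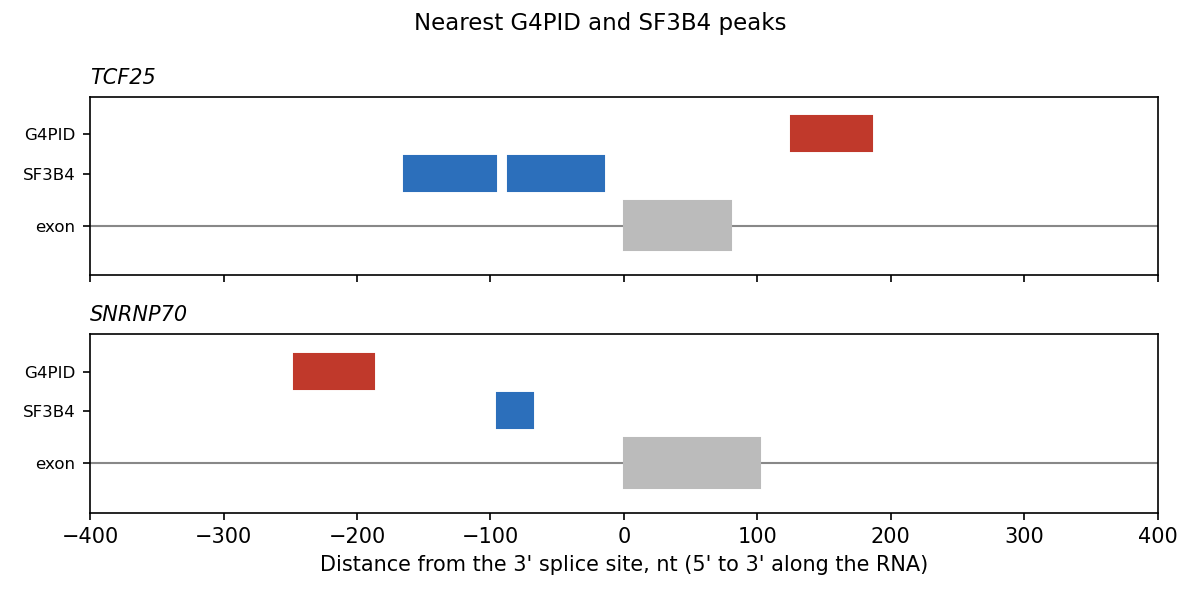
Deposited G4PID peaks (red) and SF3B4 peaks (blue) within 400 nt of the 3' splice site nearest to the closest SF3B4 peak, with exons in grey, drawn to scale in nt along the RNA. In TCF25 the peaks stand on opposite sides of an exon of 80 nt, and in SNRNP70 both stand in the intron before an exon of 102 nt.

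The second G4PID peak of TCF25 had a log2 fold of 5.30 and lay in the same intron 16, which is 3268 nt long, 817 nt downstream of its 5' splice site. The nearest 3' splice site of any basic-set transcript was 827 nt farther along. The highest SF3B4 peak of the gene (log2 fold 5.69, above 97.1% of that list) lay at the far end of that intron, 78 nt upstream of its 3' splice site. The remaining SF3B4 peaks were at the ends of introns 6, 7 and 17, at 34, 47 and 97 nt upstream, with log2 folds of 4.01, 3.55 and 4.17. SF3B4 thus marked 5 of 17 TCF25 introns, while G4PID marked 1. A further SF3B4 peak (89912448 to 89912521, log2 fold 3.13) had its midpoint within TCF25 but also in an exon of MC1R, and was counted there. Both G4PID peaks and the SF3B4 peaks from intron 15 onwards also fell within the overlapping gene AC092143.3 on the same strand. Reads of TCF25 and of AC092143.3 cannot be told apart at those places.

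PCBP2, YBX3 and MROH6 carried G4PID at the 5' end of the RNA and SF3B4 at introns farther down. Of the 15 G4PID peaks in the 10 genes, 4 lay in the first 10% of the gene (26.7%, exact interval 7.79 to 55.1%). In other protein-coding genes 23 of 176 did (13.1%), and in the 11 other genes in both lists 0 of 15 did. This difference was not tested. PCBP2 (chromosome 12, 53452102 to 53481162, plus strand) encodes a poly(C)-binding protein that acts in mRNA stability and translation. Its single G4PID peak (53452212 to 53452296, log2 fold 6.07, −log10 p 13.8) had its midpoint 152 nt into the gene, in the 5'UTR. Of the bases of that peak, 65.9% were C and 87.1% C or T, the highest shares among the 189 readable G4PID peaks, whose medians were 30.2% and 50%. Its 3 SF3B4 peaks were at the ends of introns 5, 9 and 10, at 33, 40 and 38 nt upstream of the 3' splice site, with log2 folds of 5.05, 4.47 and 3.84. The peaks of PCBP2 also fall in AC023509.1, an overlapping gene on the same strand.

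YBX3 (chromosome 12, 10699089 to 10723312, minus strand) encodes a cold-shock domain protein that binds RNA and DNA. Its G4PID peak (10722967 to 10723074, log2 fold 5.54, −log10 p 9.26) lay in the coding part of exon 1, 170 nt upstream of the 5' splice site. Its 4 SF3B4 peaks had log2 folds of 3.69, 5.09, 4.95 and 3.58 in order along the RNA. Of these, 3 lay 82, 39 and 30 nt upstream of the 3' splice sites of introns 3, 5 and 6. The peak with the value of 5.09 (10710788 to 10710839) was 699 nt away from any 3' splice site of the basic set but 25 nt upstream of one in the full annotation. It ends on the first base of the exon that follows that site. The sequences are shown because they set a GC-rich contact of G4PID in coding sequence beside the contacts of SF3B4 in introns of the same RNA. Capitals mark the deposited peak (hg38, minus strand). For introns 3 and 6 and the end of intron 5, lower-case bases continue to the nearest basic-set 3' splice site and 2 bases into the exon. The G4PID peak and the SF3B4 peak inside intron 5 are shown alone.
YBX3 G4PID, chr12:10722967-10723074: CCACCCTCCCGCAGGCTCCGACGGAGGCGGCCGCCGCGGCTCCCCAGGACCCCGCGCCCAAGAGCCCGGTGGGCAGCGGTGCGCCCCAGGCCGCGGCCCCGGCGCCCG
YBX3 SF3B4, intron 3, chr12:10715782-10715889: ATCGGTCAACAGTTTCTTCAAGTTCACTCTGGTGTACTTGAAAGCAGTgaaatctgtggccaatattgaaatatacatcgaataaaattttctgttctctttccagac
YBX3 SF3B4, inside intron 5, chr12:10710788-10710839: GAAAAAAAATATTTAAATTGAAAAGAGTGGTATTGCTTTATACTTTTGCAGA
YBX3 SF3B4, end of intron 5, chr12:10710113-10710174: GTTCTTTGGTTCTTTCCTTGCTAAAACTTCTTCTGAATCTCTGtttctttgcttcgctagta
YBX3 SF3B4, intron 6, chr12:10704147-10704199: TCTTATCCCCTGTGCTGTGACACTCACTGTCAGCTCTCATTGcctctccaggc
G was 36.1% of the YBX3 G4PID peak and between 14.0% and 20.8% of its SF3B4 peaks. C was 49.1% of the G4PID peak, against 5.77% to 33.3% of the SF3B4 peaks.

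MROH6 (chromosome 8, 143566187 to 143572971, minus strand) encodes a protein of the maestro HEAT-like repeat family. Its 2 G4PID peaks, at log2 folds of 5.22 and 5.80, lay in the coding sequence of exon 1, 246 and 170 nt upstream of the 5' splice site. Its 2 SF3B4 peaks, at 3.58 and 4.58, lay at the ends of introns 10 and 11, which measure 290 and 253 nt. Their midpoints were 6 and 30 nt upstream of the 3' splice site.

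In SQSTM1, TCIRG1, PIEZO1 and RECQL4 the G4PID peaks were mostly intronic. SQSTM1 (chromosome 5, 179806398 to 179838078, plus strand) encodes a selective autophagy receptor. It was the member with the most G4PID peaks, at log2 folds of 4.63, 5.46 and 5.39, all within intron 1, which is 1816 nt long. They lay 80 and 250 nt downstream of the 5' splice site of the nearest upstream exon and, for the last, in a 5'UTR exon of another transcript. Its single SF3B4 peak (179837617 to 179837716, log2 fold 3.02) lay in the 3'UTR, 1195 nt downstream of the last 3' splice site. It was the only member with no SF3B4 peak in an intron. That peak stood just above the lowest value of the SF3B4 list, 3, and on the other strand it overlapped MRNIP.

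TCIRG1 (chromosome 11, 68039016 to 68050895, plus strand) encodes the a3 subunit of the vacuolar proton pump, used by bone-resorbing osteoclasts. It was the only member with a single peak in each list. The G4PID peak (68043181 to 68043256, log2 fold 5.30) lay in intron 5, 187 nt downstream of a 5' splice site, and counted as 5'UTR because another transcript starts there. The SF3B4 peak (68049610 to 68049705, log2 fold 4.79) crossed the 3' splice site of intron 15, with its midpoint 6 nt upstream.

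PIEZO1 (chromosome 16, 88715338 to 88785220, minus strand) encodes a mechanically gated cation channel and has 50 introns. Its G4PID peak (88731920 to 88731959, log2 fold 5.26, −log10 p 14.7) lay in intron 21, 29 nt upstream of the 3' splice site. It was the only G4PID peak of the 10 genes in the stretch 10 to 60 nt upstream of a 3' splice site, where SF3B4 is usually found. The SF3B4 list had no peak at that intron. Its 2 PIEZO1 peaks lay at introns 28 and 44, 24 and 30 nt upstream, at log2 folds of 3.93 and 3.54.

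RECQL4 (chromosome 8, 144511288 to 144517845, minus strand) encodes a RecQ family DNA helicase. Its single G4PID peak (log2 fold 4.99, −log10 p 15.7) lay in intron 12, of 215 nt, 94 nt downstream of the 5' and 122 nt upstream of the 3' splice site. SF3B4 had 5 peaks, at introns 1, 6, 8, 15 and 17, which were 65 to 306 nt long, with log2 folds of 3.23, 3.63, 5.24, 3.4 and 3.98. Their midpoints were 8 to 35 nt upstream of the 3' splice site. The G4PID peak stood between the third and the fourth of them along the RNA.

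MAD1L1 (chromosome 7, 1815793 to 2233243, minus strand) encodes a spindle checkpoint protein and, at 417451 nt, was the longest member. Its 2 G4PID peaks, at log2 folds of 5.12 and 3.92, lay in the last intron, 18, which measures 81971 nt, at least 9885 nt from any splice site. Its SF3B4 peak, at 3.09, lay at intron 8, of 157 nt, 16 nt upstream of the 3' splice site.

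By region of the transcript, 6 of the 15 G4PID peaks in the 10 genes were exonic (40%, 95% exact binomial interval 16.3 to 67.7%), 3 in coding sequence and 3 in 5'UTR. The other 9 were intronic, 6 of them within 500 nt of a splice site and 3 deeper. None was in a 3'UTR, a class that held 43 of the 176 G4PID peaks in other protein-coding genes (24.4%). Exons held 123 of those 176 peaks (69.9%), with 61 in coding sequence (34.7%) and 18 in 5'UTR (10.2%). In the 11 other genes with peaks in both lists, 3 of 15 G4PID peaks were exonic (20.0%). The other protein-coding genes include these 11, so these 15 peaks are among the 176. Of the 28 SF3B4 peaks, 24 were in introns within 500 nt of a splice site (85.7%, 67.3 to 96.0%), 2 were deeper in introns, 1 was in a 5'UTR and 1 in a 3'UTR. This proximal intronic class held 40% of the G4PID peaks in the 10 genes, against 46.7% in the 11 other genes with peaks in both lists and 13.6% of all G4PID peaks in other protein-coding genes. The SF3B4 shares for the last pair of sets were 82.1% and 87.0%. No difference between these sets was tested, since peaks of a gene share their RNA. With transcripts outside the basic set also counted as exons, the proximal intronic share of SF3B4 in the 10 genes was 50%.

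Relative to 3' splice sites, 1 of 15 G4PID peaks had its midpoint 10 to 60 nt upstream (6.67%, exact interval 0.169 to 31.9%), and 17 of 28 SF3B4 peaks did (60.7%, 40.6 to 78.5%). Elsewhere in the lists, counting peaks whose gene has a 3' splice site, the shares were 2.48% of 242 G4PID peaks and 69.0% of 3595 SF3B4 peaks. Another 5 SF3B4 peaks, in TCF25, YBX3 and SNRNP70, lay 61 to 131 nt upstream. In MROH6, TCIRG1 and RECQL4, 3 lay less than 10 nt upstream. The 2 deep intronic SF3B4 peaks, in YBX3 and SNRNP70, both fell 10 to 60 nt upstream of a site annotated only outside the basic set. Among the other deep intronic SF3B4 peaks of the list, 22 of 89 did (24.7%). That comparison was made after the values were seen.

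**Figure D3:**
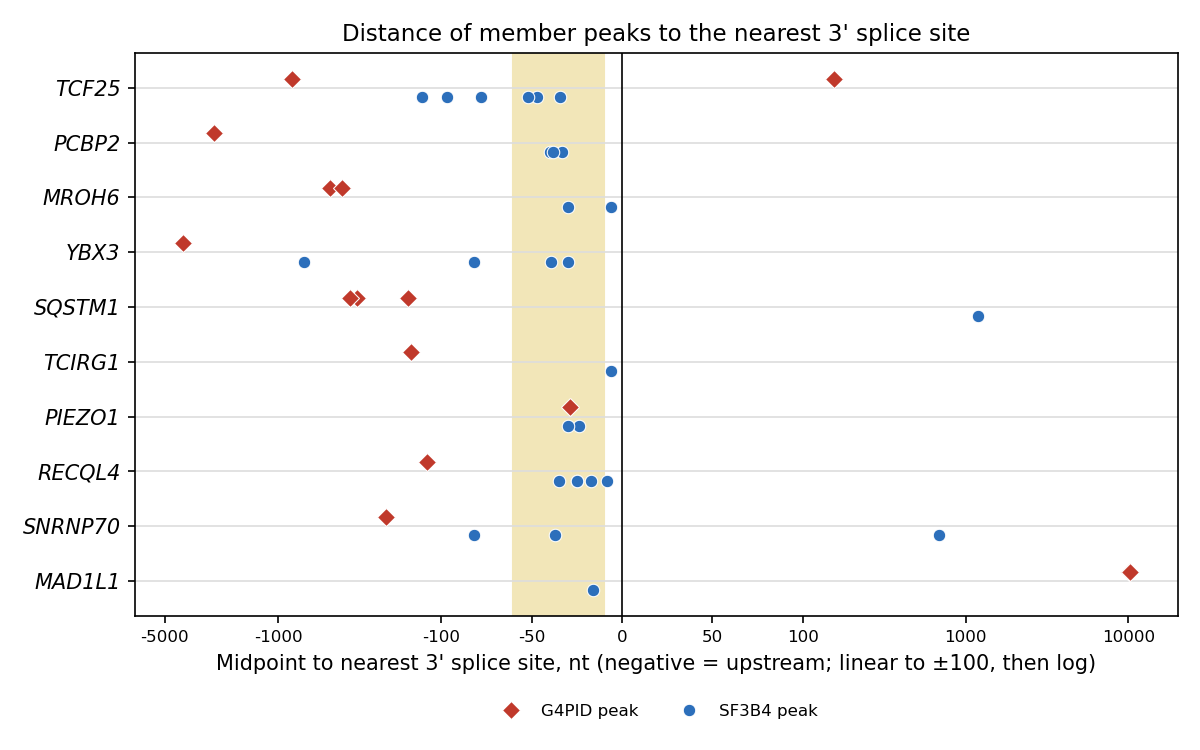
Distance from every peak midpoint in the 10 genes to the nearest 3' splice site of the basic transcript set, in nt, negative upstream, on an axis that is linear to 100 nt and logarithmic beyond; the shaded band marks 10 to 60 nt upstream. The band holds 1 of 15 G4PID peaks (red diamonds), in PIEZO1, and 17 of 28 SF3B4 peaks (blue circles).

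An SF3B4 contact that stops short of the 3' splice site, in TCF25, and contacts that cross it, in TCIRG1 and PIEZO1, are shown for comparison, with capitals for the deposited peak and lower case for the stretch to the site and 2 bases of exon (hg38).
TCF25 SF3B4, intron 16, plus strand, chr16:89910455-89910592: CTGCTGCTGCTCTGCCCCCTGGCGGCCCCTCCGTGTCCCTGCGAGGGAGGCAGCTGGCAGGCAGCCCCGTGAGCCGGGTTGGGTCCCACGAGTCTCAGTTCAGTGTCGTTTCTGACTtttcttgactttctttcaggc
TCIRG1 SF3B4, intron 15, plus strand, chr11:68049610-68049705: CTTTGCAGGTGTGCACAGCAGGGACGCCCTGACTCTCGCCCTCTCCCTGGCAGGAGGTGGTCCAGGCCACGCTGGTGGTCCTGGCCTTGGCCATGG
PIEZO1 SF3B4, intron 44, minus strand, chr16:88717197-88717286: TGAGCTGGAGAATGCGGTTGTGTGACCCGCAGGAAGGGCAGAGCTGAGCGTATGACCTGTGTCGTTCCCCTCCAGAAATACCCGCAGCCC
In the 10 genes, 9 of 28 SF3B4 peaks crossed the nearest 3' splice site from the intron into the exon (32.1%, exact interval 15.9 to 52.4%), as did 41.4% of the other SF3B4 peaks. None of the 15 G4PID peaks did (0.0%, exact interval 0.0 to 21.8%), and 9 of the 254 other G4PID peaks did (3.54%).

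G4PID peaks were also set against 5' splice sites. In the 10 genes, 5 of 15 midpoints lay 1 to 250 nt downstream of the nearest 5' splice site (33.3%, exact interval 11.8 to 61.6%). These were the leading TCF25 peak at 76 nt, SQSTM1 at 80 and 250 nt, RECQL4 at 94 nt and TCIRG1 at 187 nt. In the 11 other genes with peaks in both lists 4 of 15 did (26.7%, 7.79 to 55.1%). Over all G4PID peaks in other protein-coding genes, a set that includes those 11 genes, 14 of 172 did (8.14%, 4.52 to 13.3%). The stretch was chosen after the distances were seen, so the difference is a description.

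The authors' log2 folds of the 15 G4PID peaks were between 3.92 (MAD1L1) and 6.35 (TCF25), with a median of 5.30 against 4.92 over the whole list. The genes were chosen with earlier results known, so this difference is a description. The log2 folds of the 28 SF3B4 peaks were between 3.02 (SQSTM1) and 5.69 (TCF25). The SF3B4 list as a whole had a median of 3.93. Values of separate lists rest on separate libraries and are not compared. By rank within its own list, the G4PID value of a member stood between 12 (TCF25) and 93 (SNRNP70) of 127 genes. The SF3B4 value stood between 85 (TCF25) and 1864 (SQSTM1) of 1882. TCF25 was thus the first of the 10 genes in both lists. Of the 15 G4PID peaks 11, and of the 28 SF3B4 peaks 25, shared their exact pair of fold and p with at least 1 other peak of the list, so these values are coarse. Over the whole lists 62.1% of G4PID peaks and 88.5% of SF3B4 peaks did.

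**Figure D4:**
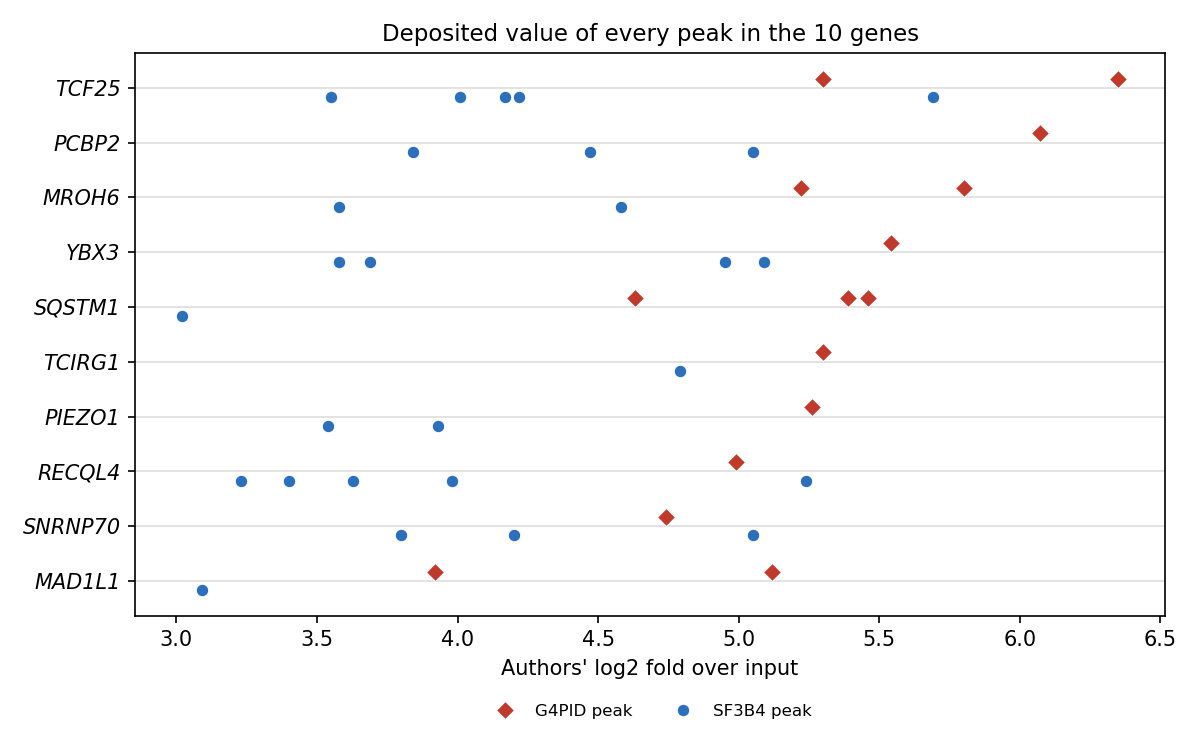
The authors' log2 fold over input for every peak in the 10 genes, G4PID as red diamonds and SF3B4 as blue circles, ordered as listed. G4PID values run between 3.92 and 6.35 and SF3B4 values between 3.02 and 5.69; each value is the deposited value of a peak and has no replicate error.

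A quadruplex motif, 4 runs of at least GGG separated by 1 to 7 bases of any kind, was searched on both strands of each peak with 50 nt on either side. Only 7 of 15 G4PID and 11 of 28 SF3B4 windows in the 10 genes could be read, because intron sequence was known only where an annotated transcript covered it. On the strand of the RNA the motif stood in 1 of 7 G4PID windows, that of SNRNP70, and in none of the 11 SF3B4 windows. Over the whole lists it stood in 9 of 161 (5.59%) and 68 of 1529 (4.45%) readable windows. In SNRNP70 the matches overlapped each other at 4 start positions, 2 of them wholly upstream of the peak. Examples are given with runs of G in capitals, the first ending 12 nt before the peak and the second crossing its edge (hg38, plus strand).
SNRNP70 upstream, chr19:49104348-49104375: GGGagaggaaGGGccGGGgagcctaGGG
SNRNP70 edge, chr19:49104364-49104390: GGGagcctaGGGggtggcGGGtgaGGG
On the opposite strand, which corresponds to runs of C in the RNA, the motif stood in 3 of 7 G4PID windows (PCBP2, YBX3 and TCIRG1) and in 17 of 161 (10.6%) over the list. For SF3B4 it stood in 1 of 11 windows, in MROH6, and in 90 of 1529 (5.89%) over the list. Within the deposited peaks alone, the opposite strand held the motif in 2 of 7 G4PID peaks, and in 13 of 189 over the list. In PCBP2 it matched at 15 start positions, most of them in the flanks alone, and on the strand of the RNA at none. The matches in TCIRG1 crossed the edge of the peak. The match in YBX3 lay within the coding peak shown above (hg38, plus strand, opposite to the gene).
YBX3 opposite strand, chr12:10723008-10723032: GGGctcttGGGcgcGGGgtcctGGG
A match describes the letters only. The flanks decided the sense count: within the deposited peaks alone, none of the 7 readable G4PID peaks of the 10 genes held the sense motif, and 1 of 189 did over the list. With loops of up to 12 bases, 2 of 7 windows with flanks held it (28.6%), and 16 of 161 over the list (9.94%).

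The 11 other genes in both lists were MROH1, BRD9, IRAK1, BUB1, EIF4A2, EEF1D, GIGYF1, OTUB1, CTTN, TTYH3 and NDUFA13. Their highest G4PID values were between 3.22 and 5.02, against 4.74 to 6.35 in the 10 genes, and their highest SF3B4 values between 3.37 and 5.2, against 3.02 to 5.69. The 10 genes were chosen with earlier results of these data known, so a difference in these values is a description. The 11 genes too had no overlapping pair. Their closest midpoints were 101 nt apart in EIF4A2, a translation initiation helicase gene with 8 SF3B4 peaks, and 235 nt apart in NDUFA13, a gene of mitochondrial complex I. The G4PID peak of EIF4A2 also lay in RF00092, a gene on the same strand, and reads of the genes cannot be told apart there. The smallest distance per gene had a median of 6417.5 nt in the 10 genes and 1289 nt in the 11. A pair within 5000 nt was held by 4 of the 10 and 8 of the 11, and a pair within 500 nt by 2 of the 10 and 2 of the 11. In 6 of the 11 every G4PID peak lay downstream of every SF3B4 peak and in 3 upstream, whereas in the 10 genes the counts were 1 and 6. This difference in order was not tested. The readthrough gene AC011448.1, on the same strand as NDUFA13, held midpoints of both lists. Both NDUFA13 peaks lay in it, so reads of these genes cannot be told apart there. Its G4PID peak was given to NDUFA13, so AC011448.1 was not counted.

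Relatives and partners of the 10 genes were looked up in both lists. Of 42 annotated genes in these lists 2 had a G4PID peak (4.76%) and 12 an SF3B4 peak (28.6%), beside 0.496% and 8.87% of all protein-coding genes. Both with a G4PID peak, BUB1 and MROH1, were themselves in both lists. The relatives' lists were chosen with earlier results of these data known, so these shares are a description and were not tested. BUB1, which encodes a spindle checkpoint kinase, had a G4PID peak at log2 fold 4.54 and an SF3B4 peak at 4.58. Spindle checkpoint genes had an SF3B4 peak in 3 of 5 cases, with BUB1B at 5.64 and BUB3 at 3.24, and ribosome quality control genes in 3 of 4, with NEMF at 4.93, VCP at up to 4.79 and ANKZF1 at 3.58. RecQ helicase genes had one in 2 of 4, WRN at 3.88 and RECQL5 at 3.97. Among poly(C)-binding proteins only HNRNPK had peaks, 3 of them up to 5.53, and among U1 proteins only SNRPB, at 4.54. Among the other autophagy receptor genes listed only CALCOCO2 had a peak, of SF3B4 at 3.74. The Y-box genes YBX1 and YBX2, the other V-ATPase a subunit genes and PIEZO2 had no peak in either list, which does not show that their RNA was unbound.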

How the data were processed

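RNA bound by G4PID and by SF3B4 in HEK293T cells was measured by eCLIP, in 6 libraries. Tools named in the submitters' processing notes are STAR 2.7.0d and cutadapt 3.4, beside both hg38 and hg19. The sources used here do not give the peak caller, its filters or how libraries were joined. Each antibody has a single hg38 list, deposited with no header. Column 4 was taken to be the authors' −log10 p-value and column 5 the authors' log2 fold over input, from the column order usual for eCLIP and the range of values.

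Peaks were placed on GENCODE release 29: 269 of 270 G4PID and 3660 of 3660 SF3B4 midpoints fell in a gene of their strand. Each peak went to 1 gene, protein-coding before other types, exon before intron, then the shortest. Region classes and splice sites came from the basic transcript set, or from all transcripts where none of it held the midpoint, and intron numbers from 1 reference transcript per gene. Sequence was read from annotated transcripts; 17043 were laid on genome coordinates with 0 disagreeing bases. No genome was used here. The scripts were checked on simulated peaks placed at known offsets. Exact binomial intervals cover counting error only. All 10 genes, the other 11 genes in both lists, and members of the relatives' lists that had a peak are named. The members and lists were chosen with earlier results of these data known. Alternatives changed gene assignment, thresholds, merging, transcript set, windows and motif. Python 3.11.15, numpy 2.4.6, scipy 1.17.1 and matplotlib 3.10.9 were used.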

Additional observations from a re-analysis of the deposited data

How the results depend on the processing

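With 12 counts and shares recomputed under 40 alternatives, 29 values stayed within 1.5 times the count or within the interval of the share, and 11 did not. Keeping only peaks with a −log10 p of at least 10 left 8 of the 21 genes in both lists, 5 of the 10 (TCF25, PCBP2, MROH6, PIEZO1 and RECQL4), 6 of their 15 G4PID peaks and 15 of their 28 SF3B4 peaks. A log2 fold of at least 4 left 7 of the 10 genes (not SQSTM1, PIEZO1 or MAD1L1), 14 SF3B4 peaks and 1 gene in place of 2 with a pair within 500 nt. At 100 nt that count was 0, and 1 gene, SNRNP70, held peaks within 100 nt edge to edge, against 0 with an overlap. With all transcripts the proximal intronic share of SF3B4 was 50%. On the basic set, the SF3B4 share was 85.7% for 0 to 100 nt upstream of a 3' splice site, in place of 60.7% for 10 to 60 nt. The G4PID sense motif share was 14.3% with flanks, 0.0% within peaks and 28.6% with loops of up to 12 bases. These shifts follow from fewer peaks, other distances or other exon definitions. No paired analysis was possible because the lists hold no value per library, and for the same reason no replicate could be left out. A distance along spliced RNA could not be given for intronic peaks.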

Other observations

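Of the 21 protein-coding genes in both lists, 4 lay within 951659 nt of chromosome 8, between 143566187 and 144517845: MROH6, EEF1D, MROH1 and RECQL4. That stretch overlaps 50 of 19940 annotated protein-coding genes, of which 6 had a G4PID peak and 16 an SF3B4 peak. PIEZO1 and TCF25 lay within 1198290 nt of each other on chromosome 16. Both stretches were picked out after the positions were seen, and no test was run.

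The 10 genes had a median of 15.5 introns in their reference transcript, and the 11 other genes in both lists had 13. The median was 6.5 in the 78 protein-coding genes with a G4PID peak and no SF3B4 peak. It was 13 in the 1747 with an SF3B4 peak and no G4PID peak, and 7 over all protein-coding genes. The part of intron number in which genes were in both lists was not tested.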
